A study of Homo sapiens with 6 samples.

Results

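Genes of lysophosphatidic acid (LPA) signalling were followed in U87-MG, an established cell line of human glioblastoma, among the 61806 genes of the deposited table. They are the receptors LPAR1, LPAR2, LPAR3, LPAR4, LPAR5 and LPAR6, the LPA-producing enzyme autotaxin (ENPP2), and the lipid phosphate phosphatases PLPP1, PLPP2 and PLPP3, 10 genes in all, found by their symbols. The list was chosen by the counts of LPAR1 and PLPP3, which had fallen in these same libraries. The values of these 2 genes are therefore given as a description, and nothing is read from their test results. The 6 RNA sequencing libraries comprise 3 negative controls (NC, given as wildtype) and 3 labelled GRIK1 siRNA (given as GRIK1 knockdown). GRIK1 encodes a kainate-type glutamate receptor subunit, and the sequencing addressed which genes follow it in glioblastoma cells. The labels number the latter libraries 1, 2 and 3 without saying whether these are repeats of a single siRNA or different siRNA sequences, and the deposited design speaks of an shRNA. The study carried a single siRNA sequence on to its later experiments, but the labels do not tie these libraries to it. They give no dose, time after transfection or culture, so the spread between libraries may be technical.

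LPA is a small signalling lipid that is made outside the cell when autotaxin cleaves lysophosphatidylcholine. It acts on a family of G protein-coupled receptors, which act through several classes of G protein on calcium, cyclic AMP and the cytoskeleton. Lipid phosphate phosphatases at the cell surface end the signal by removing the phosphate, and autotaxin and LPAR1 have been studied in glioma for their link to cell migration.

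The targeted gene did not show a loss in these low counts. GRIK1 had 18, 9 and 8 counts across the NC libraries against 15, 20 and 20 with the GRIK1 siRNA label, which are therefore called siRNA-labelled here after their label alone. At 0.13 to 0.38 FPKM, GRIK1 was too low for its counts to settle how far it was reduced. The paper reports an efficient GRIK1 knockdown in U87-MG cells from separate measurements. Total counts were between 11099909 and 14006968 per library. NC library 3 stood apart on the leading principal component, with 8.45% of its counts on 82 ribosomal protein genes against 4.35% to 4.99% in the other 5 libraries, and results that rest on it are given with and without it. Of markers of the labelled glioma cells, VIM (825 to 1076 FPKM) and CD44 (50.8 to 71.6 FPKM) were abundant in every library, whereas AQP4 was at 0 and GFAP, S100B and SOX2 stayed at or below 0.28 FPKM. OLIG2 (0.41 to 0.83 FPKM) and NES (0.21 to 0.69 FPKM) were low as well. GFAP was at 0.05 to 0.10 FPKM in the NC libraries and 0.25 to 0.28 FPKM in the others. FPKM is a read count scaled to the length of the gene and to the depth of the library, so it compares levels between genes.

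The phosphatases PLPP3 and PLPP1 were the most abundant of the list in the NC libraries. On the FPKM scale the order of NC levels was PLPP3, PLPP1, LPAR1, ENPP2 and PLPP2, with mean levels of 13.6, 8.91, 7.13, 4.41 and 1.39, and the 3-library ranges of neighbours in this order did not overlap. LPAR4, LPAR6 and LPAR2 followed at mean levels of 0.473, 0.47 and 0.45 FPKM with overlapping ranges, LPAR5 was at 0.03 FPKM and LPAR3 at 0. In the siRNA-labelled libraries the order was PLPP1, ENPP2, PLPP3, LPAR1 and PLPP2. There PLPP1 (7.12 to 8.02 FPKM) and ENPP2 (6.70 to 7.30 FPKM) overlapped, and PLPP3 (6.08 to 6.54 FPKM) lay below both.

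**Figure D1:**
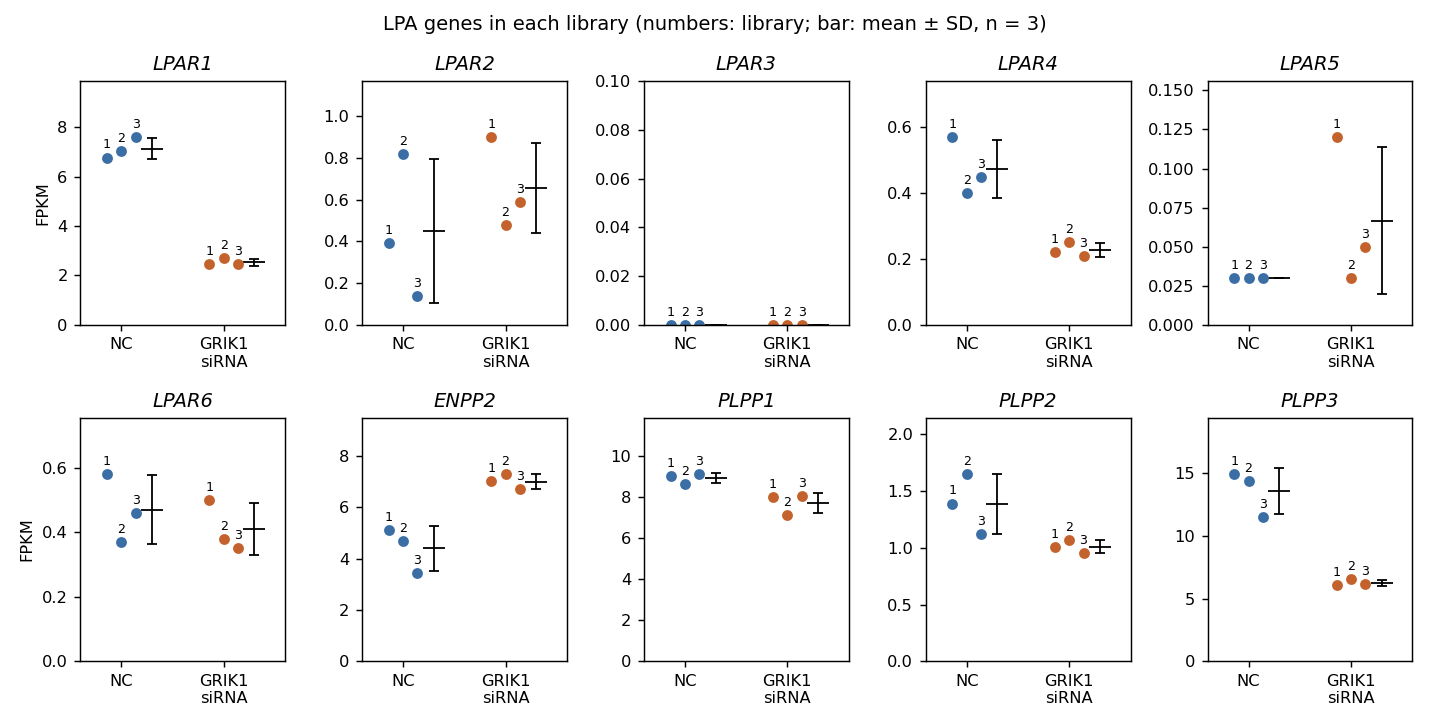
FPKM of the 10 LPA genes in NC libraries (blue) and siRNA-labelled libraries (orange), with a panel and a vertical scale for each gene; points are libraries, numbered, and bars are the mean ± SD (n = 3). LPAR1 and PLPP3, on which the list was chosen, lie lower in all 3 orange libraries, ENPP2 lies higher (6.70 to 7.30 against 3.43 to 5.10), and LPAR3 is at 0 throughout.

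The comparison asked which genes differed between the 2 labels. Counts were tested with edgeR, and a gene was called when its Benjamini-Hochberg adjusted p was under 0.05 and its absolute log2 fold change over 1. Of all tested genes, 224 of 15870 were called (1.41%) and 489 had an adjusted p under 0.05 (3.08%). Of the 10 LPA genes, 6 reached the filter of a mean of 0.5 FPKM over the 6 libraries, and LPAR3, LPAR4, LPAR5 and LPAR6 did not. The 2 called were LPAR1 and PLPP3, on which the list was chosen, so nothing is read from this count. No other member had an adjusted p under 0.05 with all 6 libraries. With LPAR1 and PLPP3 left aside, the groups did not overlap in TMM-scaled counts for 3 of the 4 other tested members, LPAR2 being the exception, where 38.4% of all tested genes did not. Over all tested genes the median log2 fold change was -0.02. With NC library 3 left out, ENPP2 and PLPP2 had an adjusted p under 0.05, 2 of these 4 members, where 35.2% of all tested genes did. Leaving out any of the other 5 libraries left no called gene in the whole table (0 of 15870 in edgeR, with 2241 to 4434 genes at an unadjusted p under 0.05), LPAR1 and PLPP3 included. Without the filter, an alternative added after seeing the data, the same 5 omissions left 1273, 931, 51, 422 and 17 called genes (NC 1, NC 2, and siRNA-labelled 1, 2 and 3). The LPA genes among them were 2, 2, 2, 2 and 1, which are LPAR1 and PLPP3 or LPAR1 alone, and since the list was chosen on these genes nothing is read from it.

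LPAR1 (ENSG00000198121, minus strand of chromosome 9, 110873263 to 111038470, GRCh38) is the most widely expressed LPA receptor and couples to Gi, Gq and G12/13 proteins. It had 311, 324 and 440 counts in NC libraries 1, 2 and 3, or 6.77, 7.04 and 7.59 FPKM. The siRNA-labelled libraries had 126, 141 and 134 counts, or 2.46, 2.70 and 2.45 FPKM. Every one of the latter was below every NC library, and the highest NC value was that of library 3. Mean levels were 7.13 ± 0.418 FPKM (SD, n = 3) and 2.54 ± 0.142 FPKM (SD, n = 3), and the fitted log2 fold change was -1.59 (SE 0.15), a level 3.0-fold lower. It was -1.47 (SE 0.11) without NC library 3. In RNA from whole cultures, fewer cells with the receptor and less receptor RNA per cell cannot be told apart. The summed FPKM of 4 fibroblast and mesenchymal markers moved against LPAR1, from 74.2 to 268 in the NC libraries and from 562 to 587 in the others. COL1A1 and COL1A2, collagen chains, made up most of it. All 4 were tested and none had an adjusted p under 0.05 (edgeR, 0.0744 for COL1A1). Without NC library 3, COL1A1, COL1A2 and COL3A1 passed with log2 fold changes of 1.31, 0.95 and 1.34 (adjusted p = 4.28e-11, 8.08e-11 and 0.00185 in edgeR) and PDGFRB did not. COL3A1 was at -0.11 with all 6 libraries, since NC library 3 held 1.11 FPKM against 0.2 to 0.6 FPKM in the other 5, so its direction turned on that library. The summed immune markers were also higher, at 2.11 to 3.21 FPKM in the NC libraries and 3.47 to 4.07 FPKM in the others. Nearly all of that sum was CD68 (log2 fold change 0.35, adjusted p = 0.276 in edgeR). The endothelial, neuronal and epithelial sums overlapped between the groups. The part of these markers in the LPAR1 difference was not tested.

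LPAR4 (ENSG00000147145, plus strand of chromosome X, 78747709 to 78758714), a receptor of the purinergic branch of the family, was low but lay on the same side. It had 30, 21 and 30 counts in the NC libraries and 13, 15 and 13 counts in the siRNA-labelled libraries, or 0.57, 0.40 and 0.45 against 0.22, 0.25 and 0.21 FPKM. The groups did not overlap. The ratio of summed counts scaled to the library totals, 41 against 81, was 0.480, with 0.321 and 0.707 as the bounds of its exact 95% confidence interval, for counting error alone. LPAR4 was below the filter. In the edgeR fit without a filter its log2 fold change was -1.17 (SE 0.37, adjusted p = 0.0733), and without NC library 3 it was -1.14 (SE 0.37, adjusted p = 0.0151). In the latter fit 5803 of 33506 genes had an adjusted p under 0.05. With any other library left out LPAR4 did not pass (adjusted p from 0.0602 to 0.386 in edgeR).

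LPAR2 (ENSG00000064547, chromosome 19, 19623655 to 19628930, minus strand), a receptor of the same branch as LPAR1, varied widely within groups. Its levels were 0.39, 0.82 and 0.14 FPKM in NC libraries 1, 2 and 3 and 0.90, 0.48 and 0.59 FPKM in the others, so that the groups overlapped. Its log2 fold change was 0.49 (SE 0.55, adjusted p = 0.59 in edgeR). It was 0.08 (SE 0.38) with NC library 3 left out, which had 6 counts. With NC library 2 left out, which had 27 counts, it was 1.21 (SE 0.52, adjusted p = 0.223 in edgeR). LPAR2 reached the filter through the siRNA-labelled libraries alone (means of 0.45 and 0.657 FPKM). In the fit without a filter it was at 0.48 (SE 0.44, adjusted p = 0.62 in edgeR). The scaled ratio of the LPAR2 sums, 74 against 46, was 1.53 (exact 95% confidence interval from 1.04 to 2.25). That interval covers counting error alone and leaves out the wide spread within groups. LPAR6 (chromosome 13, 48389567 to 48444704) had 28, 18 and 28 counts in the NC libraries and 27, 21 and 20 counts in the others, and these ranges overlapped. The scaled ratio of the LPAR6 sums was 0.871 (exact 95% confidence interval from 0.617 to 1.23). LPAR6 lies on the minus strand within the span of RB1, which had 2228 counts against 142 for LPAR6 over the 6 libraries. The use of strand in counting is not given in the sources used here, so LPAR6 counts are uncertain. LPAR5 (chromosome 12, 6618835 to 6635960, minus strand) had a count of 1 in every NC library, against 4, 1 and 2 with the siRNA label. The scaled ratio of its sums, 7 against 3, was 2.21 with an interval from 0.505 to 13.3, which does not separate a rise from a fall. LPAR3 (chromosome 1, 84811602 to 84893206, minus strand) had 0 counts in each of the 6 libraries, which allows up to 3 counts per library, or between 0.0606 and 0.0764 FPKM.

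The receptor sum was lower along with LPAR1. Summed over the 6 receptors, the level was 8.35, 8.66 and 8.67 FPKM in the NC libraries and 4.19, 3.84 and 3.65 FPKM in the siRNA-labelled libraries. LPAR1 made up 81.1%, 81.3% and 87.5% of this sum across the NC libraries, against 58.6%, 70.3% and 67.2% in the others. It remained the most abundant receptor RNA in all 6 libraries. The share of LPAR2 was 1.66% to 9.42% in the NC libraries and 12.5% to 21.4% in the others, and that of LPAR6 was 4.30% to 6.95% and 9.54% to 11.9%. That of LPAR4 was 4.61% to 6.84% and 5.29% to 6.54%. The shares hold LPAR1, on which the list was chosen, and were not tested.

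PLPP3 (ENSG00000162407, chromosome 1, 56494761 to 56645301, minus strand) encodes a phosphatase of the plasma membrane that degrades LPA and related lipid phosphates outside the cell. It had 873, 841 and 850 counts in the NC libraries, or 14.92, 14.34 and 11.51 FPKM. In the siRNA-labelled libraries it had 397, 435 and 427 counts, or 6.08, 6.54 and 6.13 FPKM. The groups were far apart, and NC library 3 was the lowest of its group. Mean levels were 13.6 ± 1.82 and 6.25 ± 0.252 FPKM (SD, n = 3 each), and the log2 fold change was -1.20 (SE 0.12), or -1.25 (SE 0.07) without NC library 3. Thus PLPP3 passed from the most abundant of the 10 genes in the NC libraries to the third in the others.

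PLPP1 (ENSG00000067113, chromosome 5, 55424854 to 55534969, minus strand), an enzyme of the same family, was lower by less. Its levels were 8.99, 8.64 and 9.11 FPKM in the NC libraries and 7.97, 7.12 and 8.02 FPKM in the siRNA-labelled libraries. The groups did not overlap, but the log2 fold change of -0.30 (SE 0.14) did not pass the test (adjusted p = 0.219 in edgeR). Its end overlaps MTREX on the plus strand, which had 5089 counts against 1196 for PLPP1, so PLPP1 counts share the uncertainty of strand. PLPP2 (ENSG00000141934, chromosome 19, 281040 to 291403, minus strand), the least abundant of the 3 phosphatases, was at 1.39, 1.65 and 1.12 FPKM in the NC libraries and at 1.01, 1.07 and 0.95 FPKM in the others. These groups did not overlap either, with NC library 3 nearest to the other group. The PLPP2 log2 fold change was -0.54 (SE 0.17, adjusted p = 0.12 in edgeR), and -0.62 (SE 0.15, adjusted p = 0.00429) without NC library 3.

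The 3 phosphatases together stood at 25.3, 24.6 and 21.7 FPKM in the NC libraries and at 15.1, 14.7 and 15.1 FPKM in the siRNA-labelled libraries. PLPP3 held 52.9% to 59.0% of this sum in the NC libraries and 40.4% to 44.4% in the others, where PLPP1 held 48.4% to 53.1%. Among these 3 phosphatases, PLPP1 was thus the most abundant RNA in each siRNA-labelled library, though it was itself lower there than in the NC libraries. The sum and the shares hold PLPP3, on which the list was chosen, and were not tested.

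**Figure D2:**
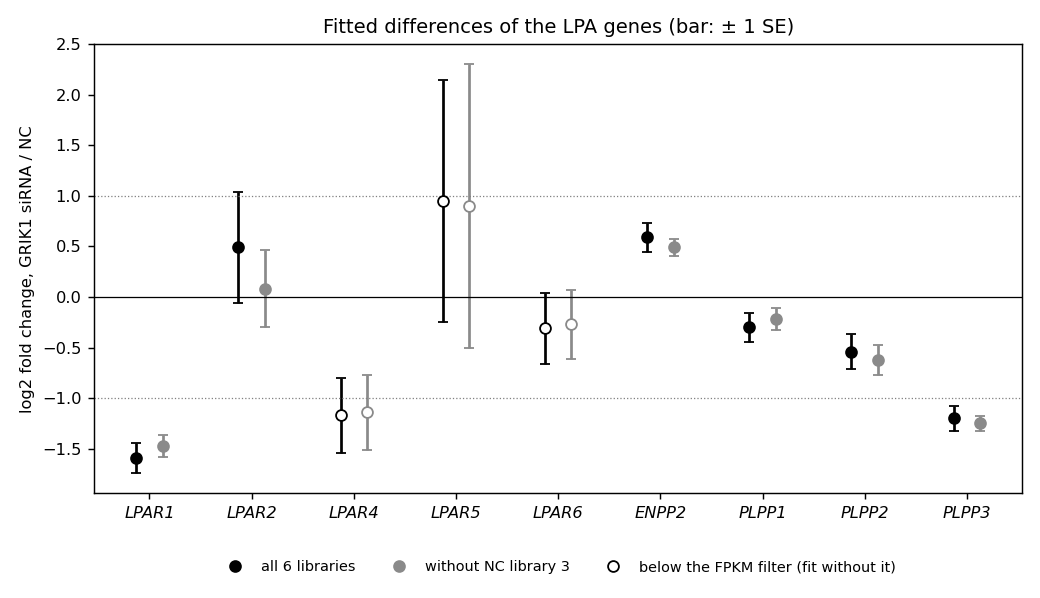
Log2 fold change (siRNA-labelled libraries against NC) of the 9 LPA genes with counts, with bars of ± 1 SE, for all 6 libraries (black) and without NC library 3 (grey); open symbols are genes below the FPKM filter, from the fit without it, and dotted lines mark the fold threshold. LPAR1 (-1.59) and PLPP3 (-1.20) lie beyond it, ENPP2 (0.59) lies on the other side of 0, and leaving out NC library 3 moves LPAR2 from 0.49 to 0.08 (it is 1.21 without NC library 2, not drawn).

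Sequence before the start sites is shown for LPAR1 and PLPP3, on which the list was chosen. It is also shown for LPAR4, the other receptor whose groups did not overlap, which was chosen after its values were seen. PLPP1 and PLPP2, also lower without overlap, are not shown. RefSeq windows (GRCh38.p14) were matched by symbol for 8 of the 10 genes. LPAR1 has 6 windows, of which the outermost was taken, and bases inside an exon of the gene in GENCODE 29 were left off. The stretches, read 5′ to 3′ on the strand of the gene, are LPAR1 at chr9:111038999-111039248 (minus strand), LPAR4 at chrX:78747470-78747708 (plus strand) and PLPP3 at chr1:56579585-56579813 (minus strand). The PLPP3 stretch precedes the RefSeq start at 56579563 and lies inside the longer span that the deposited table gives the gene. Capitals mark matches to the motifs searched.
LPAR1: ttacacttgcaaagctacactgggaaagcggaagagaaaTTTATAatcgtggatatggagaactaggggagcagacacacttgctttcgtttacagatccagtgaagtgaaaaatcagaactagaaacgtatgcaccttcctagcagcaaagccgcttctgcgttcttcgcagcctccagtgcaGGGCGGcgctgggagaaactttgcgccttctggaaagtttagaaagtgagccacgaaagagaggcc
LPAR4: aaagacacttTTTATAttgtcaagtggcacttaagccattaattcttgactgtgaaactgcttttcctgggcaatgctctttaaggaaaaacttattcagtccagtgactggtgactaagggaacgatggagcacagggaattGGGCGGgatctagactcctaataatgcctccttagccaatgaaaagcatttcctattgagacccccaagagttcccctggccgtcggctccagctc
PLPP3: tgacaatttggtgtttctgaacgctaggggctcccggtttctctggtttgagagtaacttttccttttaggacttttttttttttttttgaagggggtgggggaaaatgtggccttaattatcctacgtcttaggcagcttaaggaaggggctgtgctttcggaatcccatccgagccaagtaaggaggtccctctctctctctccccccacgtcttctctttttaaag

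The motifs were searched on both strands as the letters GGAATG for TEAD factors, TGANTCA for AP-1, GGGCGG for Sp1, TATAAA for the TATA box, TTTNGCGC for E2F factors, TGACGTCA for the cAMP response element and, by its name, the CArG box of serum response factor. LPAR1 and LPAR4 each held 1 Sp1 match and 1 TATA box match, the latter on the opposite strand, and no matches overlapped. PLPP3 held none of these letters in its window. Among all 35116 windows of 250 bases, 42.6% held the Sp1 letters, 10.7% the TATA box, 11.9% the TEAD, 6.57% the AP-1, 1.65% the cAMP response element, 1.51% the E2F and 1.16% the CArG letters. The LPAR4 and PLPP3 stretches, with 239 and 229 bases, are somewhat shorter than those windows. The 3 stretches had a GC content of 48.4%, 45.6% and 46.3%, below the median window of 58.0%. A match is a description of the letters only.

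Autotaxin moved the other way. ENPP2 (ENSG00000136960, minus strand of chromosome 8, 119557086 to 119673453) had 381, 352 and 323 counts in NC libraries 1, 2 and 3 and 584, 620 and 596 counts in the siRNA-labelled libraries. On the FPKM scale these were 5.10, 4.7 and 3.43 against 7.01, 7.30 and 6.70. Every siRNA-labelled library was above every NC library, and NC library 3 was the lowest of the 6. Mean levels were 4.41 ± 0.872 and 7.0 ± 0.30 FPKM (SD, n = 3 each). The log2 fold change of 0.59 (SE 0.14) missed the threshold with all 6 libraries (adjusted p = 0.0627 in edgeR). Without NC library 3 the difference was smaller, 0.49 (SE 0.081), and passed (adjusted p = 0.000156 in edgeR), as did 35.2% of all tested genes. DESeq2 gave ENPP2 an adjusted p of 0.008 with all libraries, where 1594 of 15870 genes had one under 0.05.

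Set against each other within each library, the gene that makes LPA and the phosphatase that removes it changed places. The ratio of ENPP2 to PLPP3 in FPKM was 0.342, 0.328 and 0.298 across the NC libraries, against 1.15, 1.12 and 1.09 in the siRNA-labelled libraries. NC library 3 lay close to the other NC libraries in this ratio. Against the sum of PLPP1, PLPP2 and PLPP3, ENPP2 stood at 0.158 to 0.202 in the NC libraries and at 0.444 to 0.496 in the others. The ratio of ENPP2 to LPAR1 was 0.451 to 0.753 in the NC libraries and 2.70 to 2.85 in the others. These ratios hold PLPP3 or LPAR1 and are descriptions of RNA levels. Neither LPA itself nor the enzymes' activity was measured.

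**Figure D3:**
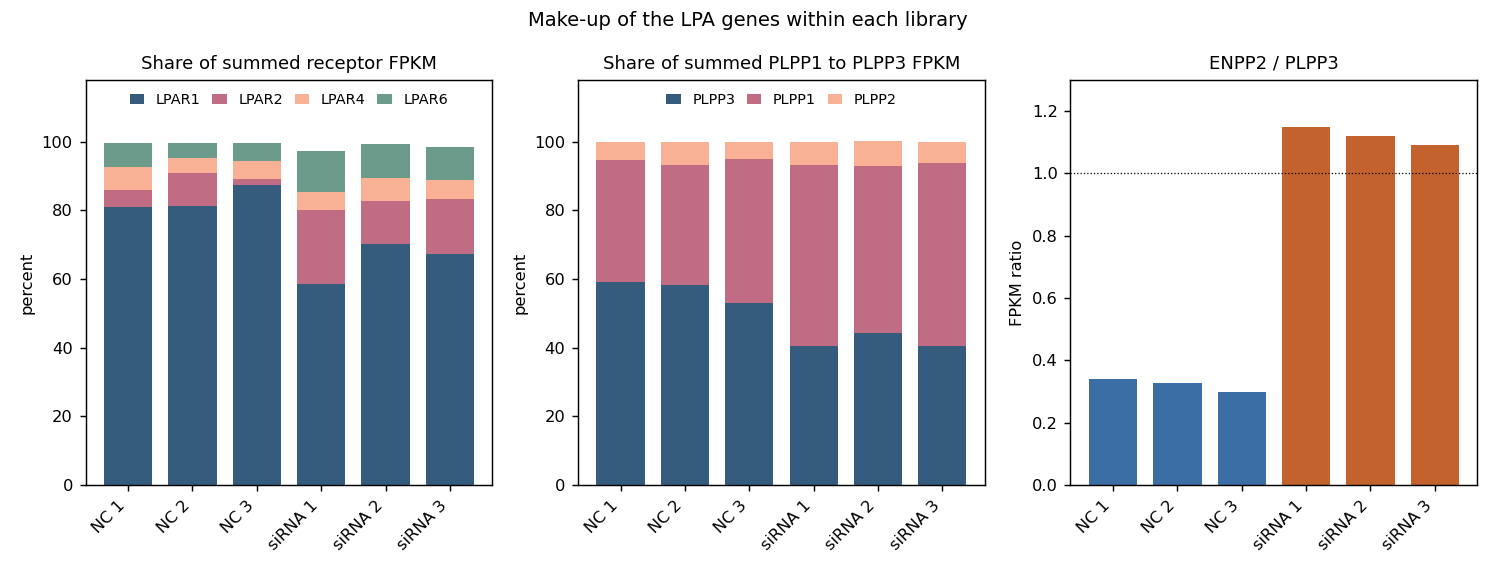
Share of each receptor in the summed receptor FPKM (left; LPAR5, under 3% in each library, and LPAR3, at 0, are not drawn), share of each phosphatase in the sum of PLPP1, PLPP2 and PLPP3 (middle), and the FPKM ratio of ENPP2 to PLPP3 (right, dotted line at 1) in each library. LPAR1 holds 81.1% to 87.5% of the receptor sum in the NC libraries and 58.6% to 70.3% in the others, and the ratio goes from 0.298 to 0.342 up to 1.09 to 1.15.

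The profiles of LPAR1 and PLPP3 were compared with those of the other tested genes with a symbol by Pearson's r of log2 CPM over the 6 libraries. These points share libraries and fall into 2 groups, so r describes the shape only. LPAR1 was most like NBDY (r = 0.9985), PRR7, SKAP2, DDX5 and PLD1 (r = 0.9972), and 432 of 13760 genes had r of at least 0.95. PLPP3 was most like MIR5697 (r = 0.9977), CEND1, EIF3A, MBLAC2 and FPGS (r = 0.9959). Between LPAR1 and PLPP3 r was 0.97, and ENPP2 had r of -0.96 with LPAR1 and -0.89 with PLPP3. In the pathway names of the deposited table, 9 of the 10 members carry phospholipase D signalling, ENPP2 being the exception, and ENPP2 shares ether lipid metabolism with PLPP1, PLPP2 and PLPP3.

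Other enzymes that make LPA or its precursors showed no common shift. Of 12 listed genes 8 were tested, 4 with a log2 fold change above 0 and 4 below, and none had an adjusted p under 0.05 (edgeR, 1 at an unadjusted p under 0.05, as had 25.1% of all tested genes). Their median log2 fold change was 0.05. The most abundant were the glycerol-3-phosphate acyltransferases GPAT3 (mean 11.6 FPKM, log2 fold change -0.14, SE 0.14) and GPAT4 (10.2 FPKM, -0.13, SE 0.11), which make LPA inside the cell. PLD1, a phospholipase D whose product can be turned into LPA, was at 10.51, 10.68 and 10.11 FPKM in the NC libraries and at 8.09, 8.13 and 8.16 FPKM in the others. These PLD1 groups did not overlap, with a log2 fold change of -0.45 (SE 0.11, adjusted p = 0.066 in edgeR, and 1.77e-05 without NC library 3). GPAM, a mitochondrial enzyme of the same step as GPAT3 that was chosen for mention after its values were seen, went from a log2 fold change of 0.33 (adjusted p = 0.325 in edgeR) to 0.59 (adjusted p = 4.7e-06) without NC library 3.

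Among enzymes that use up LPA, AGPAT1 fell. This acyltransferase (chromosome 6, 32168212 to 32178096) turns LPA into phosphatidic acid inside the cell. It was at 14.27, 14.56 and 13.09 FPKM in the NC libraries and at 10.56, 9.39 and 10.07 FPKM in the siRNA-labelled libraries, without overlap. Its log2 fold change was -0.57 (SE 0.11, adjusted p = 0.0444 in edgeR) and -0.55 without NC library 3. It was the only gene of this list with an adjusted p under 0.05, 1 of 8 tested and 10 listed, against 3.08% of all tested genes, and the list had a median log2 fold change of -0.03. At the filter of 0.5 FPKM, AGPAT1 did not pass with a replicate block or when any library but NC library 3 was left out. PLPP5, another lipid phosphatase and the most abundant of the list, was at 13.5 ± 1.82 and 16.2 ± 0.63 FPKM (SD, n = 3 each; log2 fold change 0.18, SE 0.11, adjusted p = 0.355 in edgeR). AGPAT3 and AGPAT4 had log2 fold changes of -0.09 (SE 0.11) and 0.22 (SE 0.20). Of the phosphatase-related proteins, which resemble the PLPP enzymes and are known from neurons, 2 of 5 were tested, PLPPR2 (0.02, SE 0.13) and PLPPR4 (0.04, SE 0.14), and neither passed. PLPPR3 was below the filter with 0 to 25 counts per library.

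Of 20 listed signalling genes below the receptors 19 were tested, with 9 log2 fold changes above 0, 10 below and a median of -0.04. Of these, 2 had an adjusted p under 0.05 with all 6 libraries, against 3.08% of all tested genes. Without NC library 3 the median was 0.14 and 9 passed, 7 higher and 2 lower, against 35.2% of all tested genes. PLCB4, a phospholipase C that Gq proteins activate (chromosome 20, 9067825 to 9504593), was at 0.51, 0.47 and 0.27 FPKM in the NC libraries and at 0.99, 1.04 and 1.10 FPKM in the siRNA-labelled libraries. It was called, with a log2 fold change of 1.26 (SE 0.20, adjusted p = 0.032 in edgeR), or 1.06 without NC library 3. PLCB4 reached the filter through the siRNA-labelled libraries alone (means of 0.417 and 1.04 FPKM), and in the fit without a filter it was at 1.23 (adjusted p = 0.000933 in edgeR). GNAI1, an inhibitory G protein subunit through which LPA receptors lower cyclic AMP (chromosome 7, 79768028 to 80226181), was at 2.0, 1.9 and 2.39 FPKM in the NC libraries and at 1.23, 1.26 and 1.28 FPKM in the others. Its log2 fold change was -0.83 (SE 0.16, adjusted p = 0.0434 in edgeR), or -0.65 without NC library 3. The groups of both genes did not overlap. At the filter of 0.5 FPKM, neither passed the test with a replicate block or when any library but NC library 3 was left out.

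Of 14 genes of the serum response, the genes that serum induces and the factors that act on them, 13 were tested and none had an adjusted p under 0.05 (edgeR, 4 at an unadjusted p under 0.05, against 25.1% of all tested genes). Their median log2 fold change was 0.09. Without NC library 3 it was -0.13, and 7 of the 13 had an adjusted p under 0.05, 2 of them higher and 5 lower, where 35.2% of all tested genes did. EGR1 and VCL, the most abundant, were at 18.32 and 15.30 FPKM in NC library 3 against 33.76 to 39.32 and 34.78 to 37.28 FPKM in the other 5 libraries, and their log2 fold changes turned from 0.09 to -0.15 and from 0.22 to -0.05 without it. CCN1, a secreted matrix protein, was at 27.11, 27.71 and 13.69 FPKM in the NC libraries and at 15.27 to 16.79 FPKM in the others. On the FPKM scale NC library 3 was thus below the siRNA-labelled libraries, while the other NC libraries were above them. In TMM-scaled counts NC library 3 lay within the range of the siRNA-labelled libraries. The CCN1 log2 fold change was -0.58 (SE 0.22, adjusted p = 0.165 in edgeR), and -0.80 (SE 0.061, adjusted p = 2.87e-08) without NC library 3. CCN2 and TAGLN were chosen for mention after their values were seen. CCN2, of the same family, had a log2 fold change of -1.0 (SE 0.26, adjusted p = 0.0782) and TAGLN, a smooth muscle actin-binding protein, of 1.17 (SE 0.26, adjusted p = 0.0563), which were -1.25 (adjusted p = 3.41e-08) and 0.92 (adjusted p = 1.57e-05) in edgeR without NC library 3. Members of this list therefore lay on both sides of 0.

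**Figure D4:**
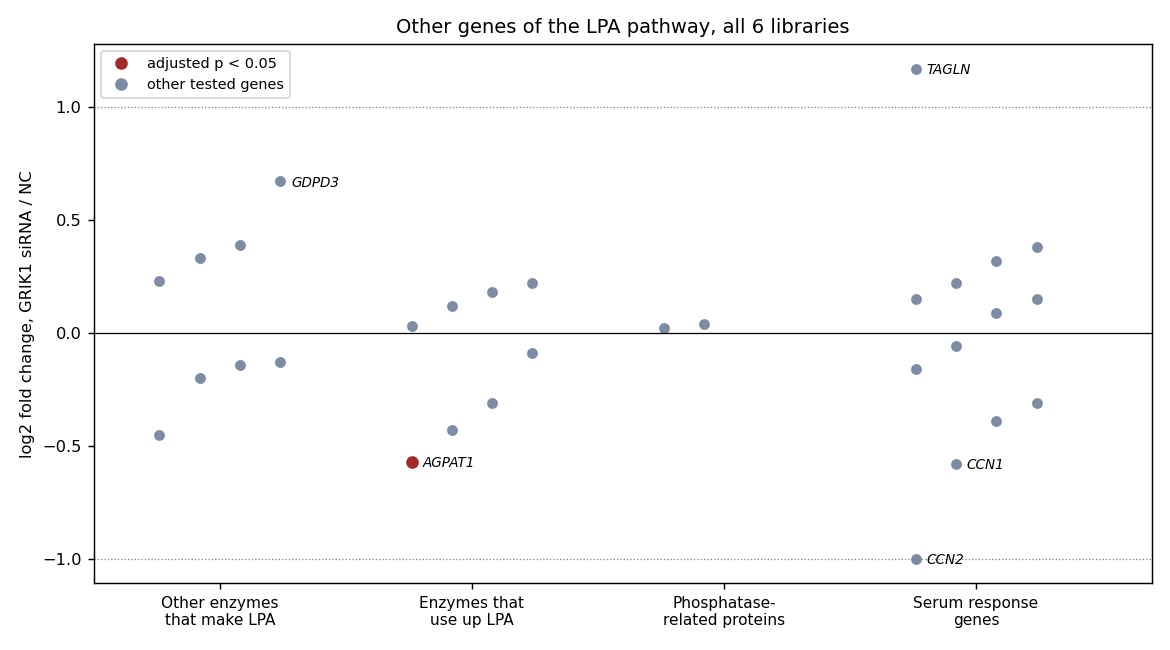
Log2 fold change (siRNA-labelled libraries against NC, all 6 libraries) of each tested gene of 4 wider lists; every point is a gene, red marks an adjusted p under 0.05, and dotted lines mark a log2 fold change of 1 in either direction. AGPAT1 (-0.57) is the red point, and each list with more than 2 tested genes spreads to both sides of 0.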

How the data were processed

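Total RNA of U87-MG cells was sequenced in 3 NC libraries and 3 libraries labelled GRIK1 siRNA, grouped by their labels, which do not name separate cultures, so that p-values measure the spread between these libraries only. Per the submitters' processing notes, cutadapt 1.9.1, HISAT2, HTSeq and GRCh38 were used. The authors deposited whole-number counts for 61806 genes, without normalization, and the exonic size of each gene in the same table. The deposited FPKM values equal the count divided by exonic size and total count (100% matched within 0.0051). The columns left unassigned and the entries naming no gene were 0.

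Counts were tested across the genes with a mean FPKM of at least 0.5 with glmQLFTest (quasi-likelihood) from edgeR 4.0.16, R 4.3.3 (TMM scaling, Benjamini-Hochberg adjustment over all tested genes). The code was tested on simulated data. Alternatives were median-of-ratios scaling, no filter, a mean FPKM of at least 1, DESeq2 1.42.0, a replicate block, and each library left out. Others were limma-trend (limma 3.58.1) on log2(FPKM + 1), which understates low genes, and on log2(FPKM + 0.1). Fits without a filter with each library left out were added after seeing the data. Intervals and the limit of 3 counts cover counting error only. Figures and sums used Python 3.11.15, pandas 2.3.3, scipy 1.17.1 and matplotlib 3.10.9.

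The 10 members and all lists were chosen with earlier results of these data known. Named genes are the members, listed genes with an adjusted p under 0.05, up to 3 more per list with the highest mean FPKM, and the 5 genes most like LPAR1 and PLPP3. GPAM, CCN2, TAGLN and SGPP2 fall outside this rule and were picked after their values were seen. GENCODE 29 and RefSeq (GRCh38.p14) served for exons and windows. A list of signalling genes below the receptors is given by its counts, with only PLCB4 and GNAI1 named.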

Additional observations from a re-analysis of the deposited data

How the results depend on the processing

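The direction of each of the 9 LPA genes with counts stayed the same in all settings run for it, with log2 fold changes from -1.69 to -1.20 for LPAR1 and from -1.28 to -1.0 for PLPP3. Their calls did not. At the filter of 0.5 FPKM, leaving out each library in turn gave 0 to 491 called genes in the table and 0 to 2 called LPA genes, with LPAR1 at -1.65 to -1.47 and PLPP3 at -1.25 to -1.16, and only the fit without NC library 3 made calls. Against 224 genes called, 664 were called with no filter, 490 in DESeq2 and 113 and 125 in limma-trend with pseudocounts of 1 and 0.1. With no filter and a library left out, chosen after seeing the data, 1273 genes were called without NC library 1, 931 without NC library 2, 798 without NC library 3, and 51, 422 and 17 without siRNA-labelled libraries 1, 2 and 3. These held 1 called LPA gene in the last fit, where PLPP3 was at -1.23, 3 without NC library 3, with LPAR4, and 2 in the others. LPAR1 and PLPP3 were chosen for their fall, so these counts describe the fits only. The cause of these shifts was not tested.

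The deviations of same-numbered libraries from their group means had correlations of -0.0703, 0.0441 and -0.0425. Those of different-numbered libraries ran from -0.0615 to 0.0835. Since NC library 3 stood apart and weighs on every NC deviation, these values cannot settle whether the numbers pair the libraries. A replicate block gave 0 genes with an adjusted p under 0.05 (3323 genes at an unadjusted p under 0.05 in edgeR). It therefore gave 0 called genes and 0 called LPA genes, with LPAR1 at -1.58 and PLPP3 at -1.20.

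ENPP2 had an adjusted p under 0.05 in 4 of 19 settings and PLPP2 in 2 of 19, and PLPP1 and LPAR2 in none of those run. Counts were low for LPAR2, LPAR4, LPAR5 and LPAR6, each with at most 33 counts in a library, and LPAR2 also varied widely within groups.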

Other observations

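Genes of sphingosine 1-phosphate, a related lipid signal that PLPP enzymes also degrade, were listed beside the LPA genes. Of 11 listed genes 7 were tested and none had an adjusted p under 0.05 with all 6 libraries (edgeR, 2 at an unadjusted p under 0.05, against 25.1% of all tested genes), with a median log2 fold change of 0.09. Without NC library 3, 2 of the 7 had an adjusted p under 0.05, against 35.2% of all tested genes. SGPP1, a phosphatase of sphingosine 1-phosphate and the most abundant of them, was at 11.1 ± 0.684 FPKM in the NC libraries and 12.7 ± 0.0473 FPKM in the siRNA-labelled libraries (SD, n = 3 each; log2 fold change 0.12, SE 0.11). SPHK1, a kinase that makes the lipid, was at 6.61, 5.90 and 8.36 FPKM in the NC libraries and 5.49, 4.49 and 4.97 FPKM in the others. The SPHK1 groups did not overlap, with a log2 fold change of -0.59 (SE 0.20, adjusted p = 0.133 in edgeR). Without NC library 3 it was smaller, -0.35 (SE 0.11, adjusted p = 0.0145). SGPL1, which cleaves the lipid, had a log2 fold change of 0.09 (SE 0.12). SGPP2, chosen after its values were seen, was at 0.78, 0.54 and 0.26 FPKM in the NC libraries and 1.25, 1.10 and 1.41 FPKM in the others, with a log2 fold change of 1.20 (SE 0.33, adjusted p = 0.0926 in edgeR, and 0.00411 without NC library 3).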
